A study of Mus musculus with 20 samples.

Results

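The 33 genes described here encode parts of the cardiac sarcomere and of the Z-disc that anchors it. They were chosen by name, for their known place in the sarcomere, and each symbol was matched to the Ensembl identifier in the deposited table. All 33 were found among the 15956 listed genes, and all 33 passed the filter on low counts that left 13991 genes for testing. In left ventricle from mice on 4 diets, none of the 33 passed the study's threshold in any of 6 comparisons, which was an adjusted p under 0.01 together with a mean of over 50 normalized counts. In the 4 comparisons between pairs of diets, the smallest adjusted p of a member was that of Myom2, the M-band protein myomesin 2. It was 0.602 times as abundant in HF + LP as in LP (95% interval of the log2 fold change -1.12 to -0.34, adjusted p = 0.0894). HF + LP with NP and HF with LP were not tested. Mice of 1 diet differed among themselves, and 12 of the 33 members (36.4%) had a within-group SD over 0.4 on the log2 scale. The share was 33.9% of all genes tested and 18.4% of genes with a mean of over 50 normalized counts, which all 33 members had.

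The study asked how a low-protein diet acts on the heart of ageing mice with and without diet-induced obesity. Male mice from 1 supplier, aged 18 months by the labels (the study's methods give a younger age at collection), were kept in shared cages for some months on 1 of 4 casein-based diets. NP was the control diet with normal protein, LP held less casein at normal fat, HF was a high-fat diet with normal protein, and HF + LP combined high fat with the low casein level. Each diet had 5 mice and 1 library per mouse, the strain and cage of each mouse are not given in the sources used here, and no mouse carried a transgene or drug by the labels. RNA from left ventricle was sequenced with a 3′ kit that reads 1 tag per polyadenylated transcript, and a long transcript thus gives no more tags than a short one. Mice are named by diet and by the animal number of the labels (NP 3, 4, 5, 6 and 8; LP 2, 5, 13, 15 and 20; HF 1 to 5; HF + LP 1 to 5), and the values of a group are listed in that order.

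The sarcomere is the contractile unit of heart muscle. Thin filaments of actin carry tropomyosin and the troponins that sense calcium, thick filaments of myosin are steadied by myosin-binding protein C, and titin spans from the Z-disc to the M-band, where myomesins crosslink the thick filaments. At the Z-disc, alpha-actinin ties actin filaments of neighbouring sarcomeres together and carries a crowd of LIM-domain, PDZ-domain and stretch-sensing proteins, while tropomodulin and the leiomodins set the length of the thin filament at its pointed end. Desmin and filamin C link the Z-disc to its surroundings, and mutations in many of these genes cause cardiomyopathy.

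Sequences before the transcription start are shown for 4 of the members whose values are given for every mouse, because each window holds a CArG box or a MEF2 site. RefSeq (GRCm38.p6) gave a window for 26 of the 33 members, 37 windows in all, of which the 250 bases before the start were searched on both strands. Nexn, Cryab, Trim55, Xirp1, Lmod3, Tcap and Myom2 had none. A CArG box, the site of serum response factor, lay in 8 of the 37 windows (21.6%) against 1.47% of all 32851 windows, and belonged to Actc1, Myl3, Myom1, Ldb3, Nebl and Fhl2. A MEF2 site lay in 7 of 37 windows (18.9%) against 2.92% of all, and belonged to Mybpc3, Ttn, Myoz2, Synpo2l, Xirp2 and Fhl2. The MCAT motif CATTCC was in 21.6% of the members' windows and 12.6% of all, the GATA core AGATAA in 21.6% and 9.99%, the E-box CANNTG in 73.0% and 66.2%, and the TATA box TATAAA in 8.11% and 12.4%. The MEF2 and TATA motifs are both rich in A and T and can overlap. Windows of 1 gene can overlap too (those of Ldb3 do), and a match describes letters only. Capitals mark the CArG box in Fhl2 and the MEF2 site in Ttn, Xirp2 and Synpo2l:
Fhl2, chr1:43163962-43164211, minus strand, in an intron of the GENCODE M21 gene: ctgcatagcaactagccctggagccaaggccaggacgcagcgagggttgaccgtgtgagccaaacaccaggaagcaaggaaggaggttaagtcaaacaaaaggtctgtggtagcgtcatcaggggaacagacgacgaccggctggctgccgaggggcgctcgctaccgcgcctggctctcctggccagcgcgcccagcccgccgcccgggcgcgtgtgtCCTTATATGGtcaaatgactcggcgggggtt
Ttn, chr2:76982548-76982797, minus strand, directly upstream of the gene: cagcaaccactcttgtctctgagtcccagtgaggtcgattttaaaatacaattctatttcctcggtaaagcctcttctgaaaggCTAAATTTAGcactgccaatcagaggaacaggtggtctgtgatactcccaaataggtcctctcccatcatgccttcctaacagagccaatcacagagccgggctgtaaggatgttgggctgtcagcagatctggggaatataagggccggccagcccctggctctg
Xirp2, chr2:67445752-67446001, plus strand, directly upstream of the gene: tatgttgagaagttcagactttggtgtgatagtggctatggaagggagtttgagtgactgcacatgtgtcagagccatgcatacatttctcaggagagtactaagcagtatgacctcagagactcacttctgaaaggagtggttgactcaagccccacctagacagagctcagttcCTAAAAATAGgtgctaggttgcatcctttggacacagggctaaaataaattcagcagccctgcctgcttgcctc
Synpo2l, chr14:20668355-20668604, minus strand, directly upstream of the gene: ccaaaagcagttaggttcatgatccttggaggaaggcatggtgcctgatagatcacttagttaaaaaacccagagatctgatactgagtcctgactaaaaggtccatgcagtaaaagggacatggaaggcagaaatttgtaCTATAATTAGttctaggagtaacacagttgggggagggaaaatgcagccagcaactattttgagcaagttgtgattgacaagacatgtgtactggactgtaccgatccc

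Library totals ran from 12559607 to 23331907 counts, of which 35.4% to 47.2% came from mitochondrial DNA. One library stood apart: LP 13 had a median correlation of 0.907 with its own group, where the other 19 had 0.942 to 0.979. These correlations used log2 counts of the genes above the minimum mean count of the study's threshold. The summed count of 6 atrial markers (Myl7, Myl4, Sln, Nppa, Bmp10 and Dkk3) ran from 2636 to 61068 in NP, from 1952 to 206441 in HF, from 2259 to 265073 in LP and from 1025 to 88048 in HF + LP. All 6 were above 0 in every mouse except Bmp10, which was at 0 in LP 2. Nppa made up most of this sum, with a mean of 30718 over the 20 mice where the sum averaged 45817. The study reads Nppa as a heart failure marker. LP 13 had the highest atrial sum, and also the highest sum of 6 adipocyte markers, 9204 against 2113 in LP 20, 1126 in HF 3 and at most 444 in the other mice. LP 20 had the highest sum of lymphocyte markers, 653 against at most 67.0 elsewhere. Cardiac-muscle markers that are not sarcomere genes (11 listed) summed to 257930 in LP 13, 287217 in LP 20 and 350623 to 456750 in the other mice, and skeletal-muscle markers to at most 82.1. In bulk tissue, fewer muscle cells and less RNA per cell cannot be told apart. For comparisons with LP, the median over the members and the values of most genes named are given also without LP 13 and LP 20.

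Sarcomere transcripts were among the most abundant in these hearts. Together the 33 members held 6.99% ± 0.54 of all counts in NP, 6.77% ± 0.62 in HF, 6.46% ± 1.19 in LP and 6.42% ± 0.37 in HF + LP (SD, n = 5). Actc1, cardiac alpha-actin, was the most abundant, with a mean of 207276 normalized counts over 20 mice and the sixth-highest level of all genes. Of the other thin-filament genes, Tpm1 (alpha-tropomyosin) averaged 137618, Tnnt2 (troponin T, which binds tropomyosin) 100928, Tnni3 (inhibitory troponin I) 71504 and Tnnc1 (calcium-binding troponin C) 18302. Thick-filament genes were led by Myl3 (essential light chain, 144705), followed by Myl2 (regulatory light chain, 105432) and Mybpc3 (myosin-binding protein C, 36172). Ttn, the titin spring, averaged 79017, and the M-band genes Myom1 and Myom2 averaged 8232 and 6712. These levels are counts of 3′ tags and can be compared between genes on that scale.

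Z-disc genes covered a wide range of level. Nexn (nexilin) averaged 23633 normalized counts, Tcap (telethonin, which caps titin at the Z-disc) 23035, Ldb3 (cypher) 13941, Csrp3 (muscle LIM protein) 11731, Myoz2 (calsarcin 1) 9960, Actn2 (alpha-actinin 2) 9470, Pdlim5 (a PDZ and LIM protein) 3880, Nebl (nebulette) 2934 and Synpo2l (a synaptopodin-like Z-disc protein) 1322. At the actin pointed end, Lmod2 (leiomodin 2, which lengthens thin filaments) averaged 9054, Tmod1 (tropomodulin 1, which caps them) 3244 and Lmod3 1389. Cryab, the small heat-shock chaperone of desmin, averaged 47802, Des (desmin) 11143 and Flnc (filamin C) 666. Of the Xin-repeat proteins of the intercalated disc, Xirp2 averaged 12061 and Xirp1 560. Among MuRF and other linker genes, Fhl2 (a LIM-only protein) averaged 18880, Smpx (small muscular protein) 7695, Cmya5 (myospryn) 4872, Trim54 (MuRF3) 2872 and Trim55 (MuRF2) 171, the lowest of the 33. Reads of Tnni3 and Nexn may be shared with same-strand neighbours (Dnaaf3 and Gm43185), and those of Myl3, Myom1, Tmod1, Des and Cryab with genes on the opposite strand (Pth1r, Myl12a, Tstd2, Gm15179 and Hspb2), since the strand setting of the counting is not given in the sources used here.

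**Figure D1:**
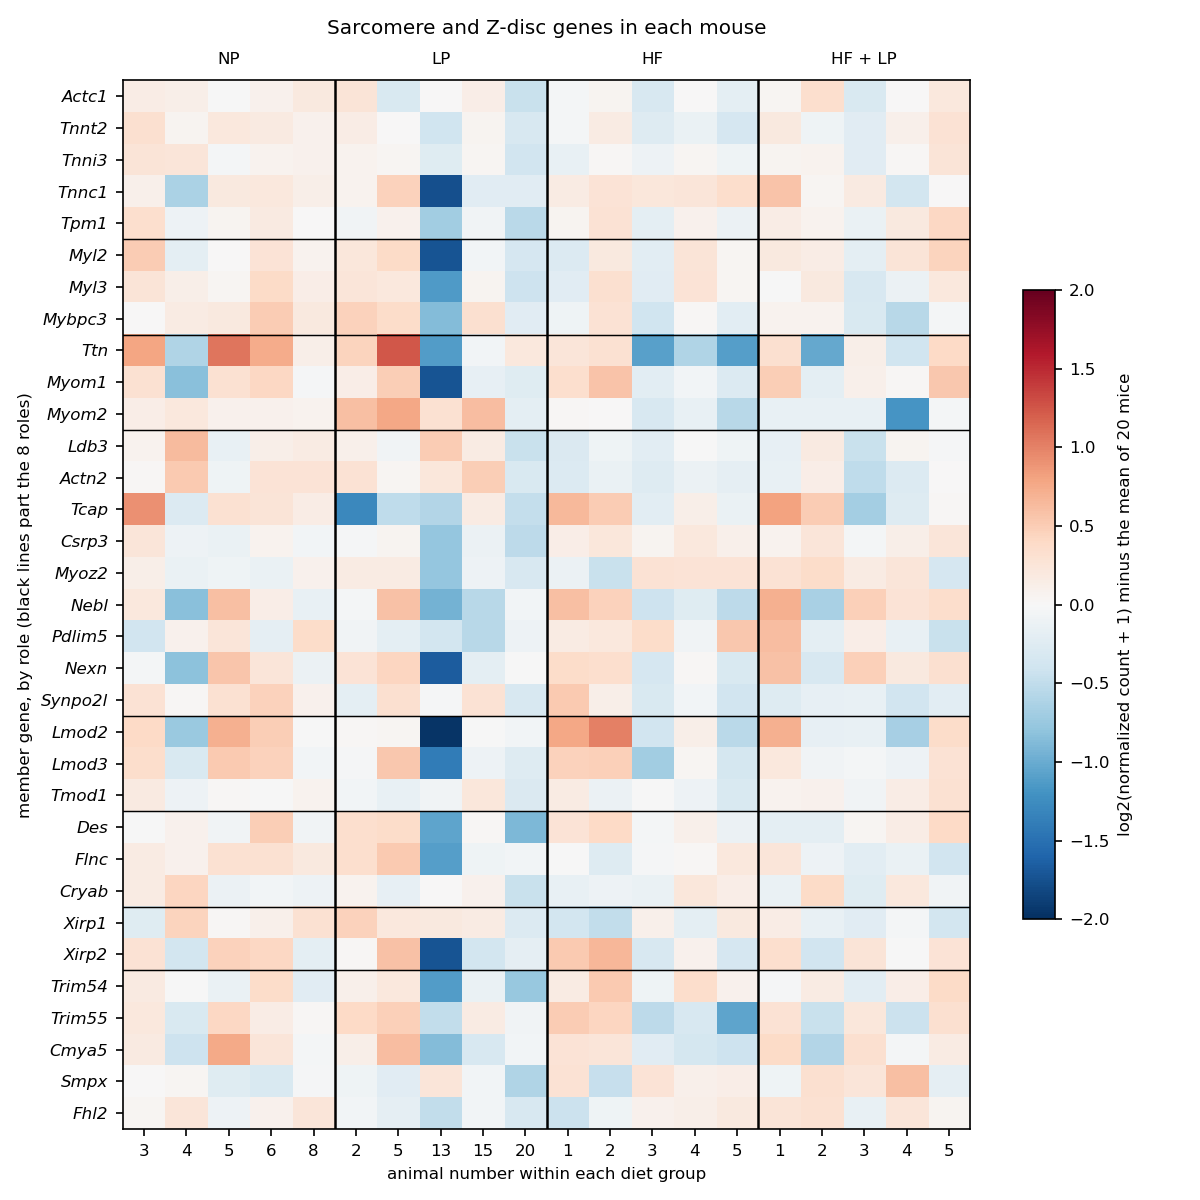
Each row is 1 of the 33 members, grouped by role, and each column is 1 mouse, grouped by diet. Colour gives log2(normalized count + 1) minus the gene's mean over the 20 mice. The LP 13 column is the bluest, as it holds the lowest value of all 20 mice for 20 of the 33 members, and the titin row changes colour from mouse to mouse within every diet.

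The most abundant member of each role was looked at first, mouse by mouse. The normalized counts of Actc1 were 228164, 223260, 204881, 218669 and 234501 in NP, 200299, 212400, 163881, 207436 and 178502 in HF, 244848, 166211, 206060, 225163 and 150454 in LP, and 211210, 257930, 166077, 207349 and 238234 in HF + LP. The 4 groups overlapped, with the lowest value in LP 20 and the highest in HF + LP 2. Myl3 counts per mouse were 168334, 153172, 144564, 184395 and 154607 in NP, 120456, 176184, 120246, 171524 and 144601 in HF, 167022, 163548, 64503, 146831 and 106026 in LP, and 140479, 161918, 112557, 129709 and 163430 in HF + LP. LP 13 was the lowest of all 20 mice at 64503. For Cryab the normalized counts were 52708, 63983, 43436, 45427 and 43995 in NP, 42690, 44294, 43243, 55133 and 51784 in HF, 49480, 42388, 47796, 49990 and 34595 in LP, and 42915, 61948, 39981, 54988 and 45274 in HF + LP. Cryab varied little, and its highest value, in NP 4, was 1.85 times its lowest, in LP 20.

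By mouse, Ttn had normalized counts of 121857, 46262, 148193, 117778 and 75985 in NP, 83213, 86418, 33141, 46165 and 32776 in HF, 96212, 166183, 32324, 68008 and 81244 in LP, and 87661, 34510, 76467, 53315 and 92618 in HF + LP. Titin had the widest spread of the 33, with a 5.14-fold range from LP 13 to LP 5, and the ranges of the 4 groups overlapped. The normalized counts of Nexn were 21750, 12625, 32930, 26450 and 20633 in NP, 28928, 28394, 17722, 22821 and 18138 in HF, 26914, 30225, 7030, 19504 and 22242 in LP, and 33618, 17921, 31236, 25565 and 28008 in HF + LP. Lmod2 counts per mouse were 10898, 4936, 13547, 11690 and 8215 in NP, 14229, 16744, 6341, 9023 and 5720 in HF, 8465, 8521, 2139, 8281 and 8012 in LP, and 13581, 7367, 7462, 5225 and 10684 in HF + LP. Lmod2 had the widest range of all, 7.83-fold from LP 13 to HF 2. For Xirp2 the normalized counts were 13927, 8809, 15698, 15195 and 9949 in NP, 16350, 18054, 9118, 12169 and 9037 in HF, 11549, 17093, 3464, 8856 and 10084 in LP, and 14463, 8736, 13576, 11351 and 13752 in HF + LP. For Nexn, Lmod2 and Xirp2 alike LP 13 was the lowest mouse, and NP 4 was the lowest of its group.

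The median within-group SD of the members was 0.34 on the log2 scale, against 0.31 for all genes tested and 0.25 for genes with a mean count over 50 (18.4% of which had an SD over 0.4), and 18 of the 33 lay above the median of all genes tested. The 12 with an SD over 0.4 were Ttn (0.71), Lmod2 (0.68), Myom1 (0.55), Nexn (0.55), Xirp2 (0.54), Nebl (0.54), Tnnc1 (0.49), Tcap (0.49), Lmod3 (0.48), Myl2 (0.47), Trim55 (0.45) and Cmya5 (0.43). They tended to be low in the same mice: all 12 were below their mean over 20 mice in NP 4 and LP 13, 11 in LP 20 and HF 3 and 10 in LP 15 and HF 5, while none were in NP 5, NP 6, HF 2, HF + LP 1 and HF + LP 5. In NP 4 the median of these 12 was -0.51 from their means (log2), while that of the other 21 members was 0.09. In LP 13 the 2 medians were -1.53 and -0.37, and in LP 20, where all of the other 21 were below their means, they were -0.13 and -0.33. The 12 were picked for their spread, to which mice such as LP 13 add, so deviations larger than those of the other 21 follow in part from that choice. The steadiest members were Tmod1 (0.15) and Tnni3 (0.15).

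**Figure D2:**
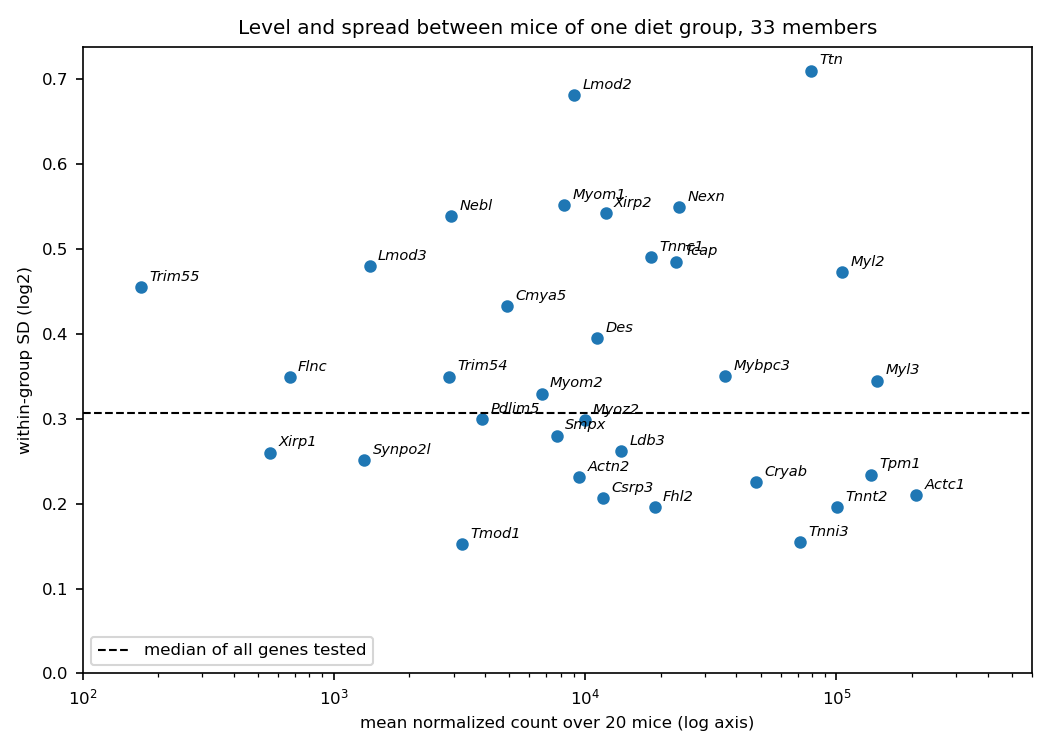
Each point is 1 member, with its mean normalized count over 20 mice on the horizontal log axis and its within-group SD (log2) on the vertical axis. The dashed line is the median SD of all genes tested, 0.31. Titin stands at the top right with an SD of 0.71, while Actc1, the most abundant member, lies below the line at 0.21.

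HF was compared with NP to ask what a high-fat diet did at normal protein. None of the 33 members passed the threshold, where 0.264% of all genes tested did, and none passed at an adjusted p under 0.05, where 1.12% did. An unadjusted p under 0.05 was reached by 3 members, all lower in HF (Actn2, Tnnt2 and Ttn). That is 9.09% of the members, where 13.1% of all genes were under it, 7.91% lower and 5.17% higher. DESeq2 likewise called 0 of the 33. Over the members the median log2 fold change was -0.11, with 22 of 33 below 0, and over all genes it was -0.0011. With the endothelial sum in the model (8 markers) the median of the members was -0.02 and 17 of 33 were below 0. In HF vs NP all 6 atrial, 8 endothelial, 8 macrophage, 9 fibroblast, 5 erythroid and 3 lymphocyte markers tested had a log2 fold change above 0, with medians of 1.25, 0.18, 0.48, 0.19, 0.58 and 0.56, while 6 of 7 smooth-muscle and pericyte markers were below 0, with a median of -0.76, as were 9 of the 11 cardiac-muscle markers (-0.15). The mitochondrial share was 38.1% to 39.8% in HF and 41.3% to 47.1% in NP, with no overlap. With the atrial sum in the model the members' median was -0.13 (22 of 33 below 0), and without transcripts of mitochondrial DNA it was -0.09 (21 of 33). The part of the macrophage, fibroblast, erythroid, lymphocyte and smooth-muscle markers was not tested. Gene positions below are in GRCm38, from the GENCODE M21 annotation.

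By mouse, Actn2 had normalized counts of 9471, 13384, 8751, 11206 and 11194 in NP, 7662, 8500, 7779, 8532 and 8236 in HF, 11416, 9598, 10847, 13067 and 7568 in LP, and 8393, 10207, 6509, 7696 and 9374 in HF + LP. All 5 HF mice lay below all 5 NP mice for this alpha-actinin gene (ENSMUSG00000052374, chromosome 13, 12269426 to 12340760, minus strand), and the log2 fold change was -0.41 ± 0.14 (SE, adjusted p = 0.188). The normalized counts of Tnnt2 were 124264, 103365, 115197, 113128 and 106300 in NP, 97319, 112094, 83503, 90786 and 78750 in HF, 110136, 100303, 75450, 103846 and 79568 in LP, and 114368, 94483, 85524, 107677 and 122489 in HF + LP. HF and NP overlapped for Tnnt2 (ENSMUSG00000026414, chromosome 1, 135836354 to 135852260, plus strand), since HF 2 lay above 2 of the NP mice, and the log2 fold change was -0.28 ± 0.13 (SE, adjusted p = 0.354). Titin (ENSMUSG00000051747, chromosome 2, 76703980 to 76982547, minus strand) was 0.552 times as abundant in HF, but NP 4 and NP 8 lay below HF 1 and HF 2, and the log2 fold change was -0.86 ± 0.40 (SE, adjusted p = 0.361).

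Myom2 was the other member whose HF and NP mice did not overlap, which held in the lower direction for 2 of the 33 members (6.06%) and for 3.6% of all genes. The NP mice spanned only 6743 to 7490 and the HF mice 4373 to 6563, and the log2 fold change was -0.31 ± 0.19 (SE, adjusted p = 0.539). The 95% intervals of the log2 fold changes included 0 for 30 of the 33 members and lay within a 2-fold difference in either direction for 32, all but Ttn.

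LP was compared with NP to ask what low protein did without added fat. None of the members passed the threshold and none reached an adjusted p under 0.05, and of all genes 0% did either. Tcap, Fhl2 and Tpm1 had an unadjusted p under 0.05 and were lower in LP, 9.09% of the members, where 7.23% of all genes were under it, 2.21% lower and 5.02% higher. DESeq2 likewise called 0 of the 33. The median log2 fold change of the members was -0.21, with 30 of 33 below 0, against 0.02 over all genes. Beside it, 10 of the 11 cardiac-muscle markers were below 0 in LP vs NP (median -0.23), while all 6 atrial (1.62), 6 adipocyte (2.46), 3 lymphocyte (1.19) and 5 erythroid markers (0.61) were above 0.

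Tcap counts per mouse were 40516, 17774, 26767, 25777 and 23937 in NP, 33689, 30640, 18685, 23386 and 19737 in HF, 8836, 15197, 14361, 24258 and 15544 in LP, and 37620, 30610, 13448, 18098 and 21812 in HF + LP. LP 15 lay above NP 4 and NP 8, and telethonin (ENSMUSG00000007877, chromosome 11, 98383811 to 98384953, plus strand) averaged 15639 ± 5532 in LP and 26954 ± 8348 in NP (SD, n = 5). The log2 fold change was -0.79 ± 0.28 (SE, adjusted p = 0.584). For Fhl2 the normalized counts were 19103, 22044, 17467, 19798 and 21983 in NP, 13809, 17531, 19838, 20331 and 21471 in HF, 17906, 16464, 13278, 18027 and 14942 in LP, and 22306, 22952, 16902, 22017 and 19440 in HF + LP. LP 2 and LP 15 lay above the lowest NP mouse, and for Fhl2 (ENSMUSG00000008136, chromosome 1, 43123074 to 43196984, minus strand) the log2 fold change was -0.32 ± 0.13 (SE, adjusted p = 0.632). By mouse, Tpm1 had normalized counts of 171774, 126581, 141121, 153989 and 136996 in NP, 140244, 165679, 118869, 143911 and 125515 in HF, 129337, 143569, 83264, 129678 and 92862 in LP, and 149716, 141617, 123454, 154532 and 179651 in HF + LP. LP 13 and LP 20 were the lowest of all 20 mice for tropomyosin (ENSMUSG00000032366, chromosome 9, 67022590 to 67049406, minus strand), and the log2 fold change was -0.34 ± 0.15 (SE, adjusted p = 0.654).

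The LP values depended on LP 13 and LP 20. The median of the members was -0.09 without LP 13 and -0.01 without LP 13 and LP 20, when 17 of 33 members lay below 0. Without LP 5 it was -0.33, and 7 members had an unadjusted p under 0.05 (smallest adjusted p 0.317, Tpm1). Fhl2 had a log2 fold change of -0.32 with all mice and -0.20 without both, Tpm1 -0.34 and -0.12, and Tcap -0.79 and -0.74. Without both mice 2 members had an unadjusted p under 0.05 in place of 3, and the smallest was that of Myom2, at a log2 fold change of 0.55 (adjusted p = 0.9999). With the atrial sum in the model the median was -0.21 and 30 of 33 members were below 0, as without it, and with the endothelial sum it was -0.13 with 26 of 33. The part of the adipocyte and lymphocyte markers was not tested beyond leaving out the 2 mice. The 95% intervals lay within a 2-fold difference for 30 of the 33, all but Ttn, Tcap and Lmod2.

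**Figure D3:**
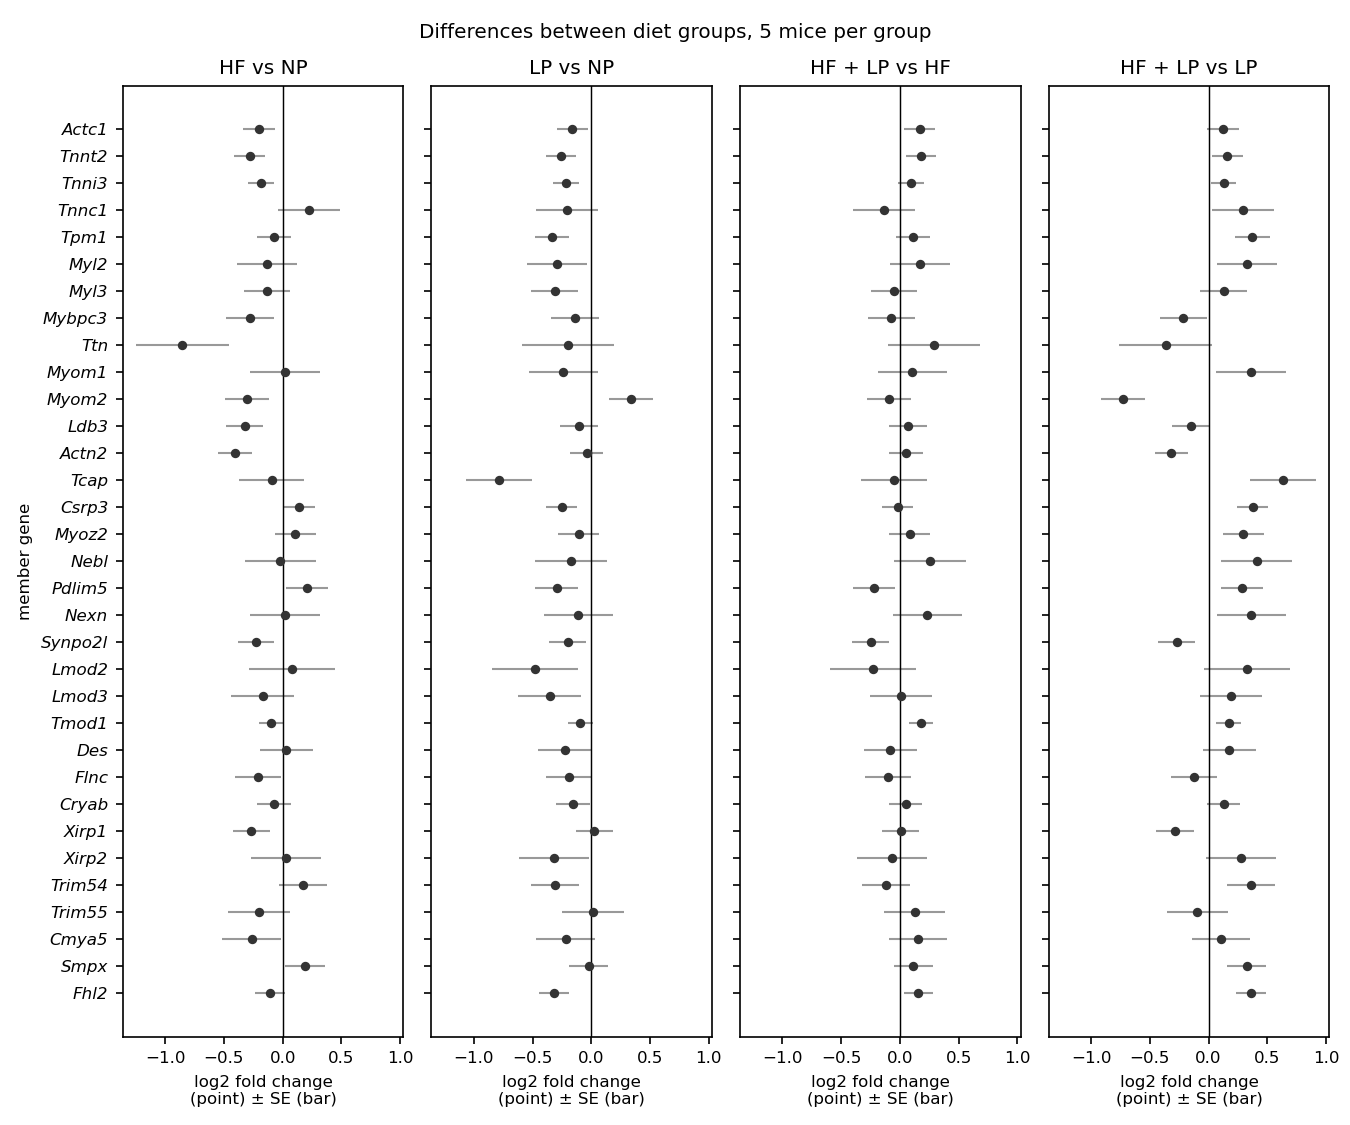
Each panel is 1 comparison of 5 mice with 5, each row 1 member, the point its log2 fold change and the bar its SE. Most points for LP vs NP sit left of 0 (30 of 33) and most for HF + LP vs LP right of it (24 of 33), with Myom2 on the other side in both.

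HF + LP was compared with HF to ask what low protein did under a high-fat diet. None of the members passed the threshold or an adjusted p under 0.05, and of all genes 0% did. No member had an unadjusted p under 0.05, where 4.84% of all genes did (2.41% higher and 2.43% lower), and DESeq2 called 0 of the 33. The median log2 fold change of the members was 0.05, with 20 of 33 above 0, against 0.02 over all genes. With the endothelial sum in the model it was 0.06 with 24 of 33 above 0, and 4 members had an unadjusted p under 0.05 (smallest adjusted p 0.572, Trim55), and with the atrial sum it was 0.03 and none had. In this comparison 9 of the 11 cardiac-muscle markers were above 0 (median 0.13), while all 6 atrial (-1.36), 6 adipocyte (-1.55), 8 macrophage (-0.35) and 9 fibroblast markers (-0.29) were below 0.

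The smallest p belonged to Tmod1, Synpo2l and Tnnt2. The normalized counts of Tmod1 were 3647, 3017, 3261, 3196 and 3392 in NP, 3613, 2987, 3192, 3016 and 2614 in HF, 3120, 2916, 3063, 3755 and 2637 in LP, and 3401, 3408, 3076, 3565 and 4004 in HF + LP. HF 5 was the lowest mouse and HF + LP 5 the highest, the groups overlapped, and the log2 fold change was 0.18 ± 0.11 (SE, adjusted p = 0.9995). Synpo2l counts per mouse were 1584, 1322, 1598, 1787 and 1380 in NP, 1859, 1409, 1055, 1254 and 990 in HF, 1137, 1626, 1275, 1589 and 1043 in LP, and 1080, 1162, 1168, 989 and 1123 in HF + LP. The HF + LP mice were tightly grouped, within the range of the HF mice but for HF + LP 4, and the log2 fold change was -0.25 ± 0.16 (SE, adjusted p = 0.9995). For Tnnt2 the log2 fold change was 0.18 ± 0.13 (SE, adjusted p = 0.9995). Every member's 95% interval included 0, and for 32 of the 33, all but Ttn, it lay within a 2-fold difference in either direction.

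HF + LP was compared with LP to ask what added fat did at low protein. None of the members passed the threshold, where 0.1% of all genes did, and none reached an adjusted p under 0.05 in edgeR, where 0.322% of all genes did. At an unadjusted p under 0.05, 4 members were higher in HF + LP (Fhl2, Csrp3, Tpm1 and Tcap) and 2 lower (Myom2 and Actn2). These are 12.1% and 6.06% of the members, against 6.26% and 9.66% of all genes, and together 18.2% against 15.9%. DESeq2 called 0 of the 33 at an adjusted p under 0.01 and 1, Myom2, under 0.05 (adjusted p = 0.0168). The median log2 fold change of the members was 0.18, against -0.03 over all genes. It was 0.30 without LP 5 (26 of 33 above 0), 0.09 without LP 13 and -0.02 without LP 13 and LP 20. With the endothelial sum in the model it was 0.26 and 13 members had an unadjusted p under 0.05, and with the atrial sum it was 0.11 and 5 had. Of the markers, 8 of the 11 of cardiac muscle were above 0 in HF + LP vs LP (median 0.29), while all 6 atrial (-1.73), 6 adipocyte (-4.83) and 3 lymphocyte markers (-0.43) were below 0.

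For Myom2 the normalized counts were 7074, 7490, 6842, 6873 and 6743 in NP, 6563, 6468, 5149, 5795 and 4373 in HF, 9762, 11047, 7932, 9861 and 5640 in LP, and 5817, 5854, 5830, 2861 and 6273 in HF + LP. Of the LP mice 4 lay above every HF + LP mouse and LP 20 lay among them, while HF + LP 4 was the lowest of all 20. Myomesin 2 (ENSMUSG00000031461, chromosome 8, 15057653 to 15133541, plus strand) averaged 8848 ± 2111 in LP and 5327 ± 1391 in HF + LP (SD, n = 5). The log2 fold change was -0.73 ± 0.19 (SE, adjusted p = 0.0894). Leaving out 1 mouse at a time gave log2 fold changes from -0.86 to -0.57 and adjusted p values from 0.0458 (without LP 20) to 0.184 (without HF + LP 4), and a fit to these 2 groups alone gave 0.435. Against NP, the LP mean of Myom2 was higher and the HF and HF + LP means lower, so that the order of group means ran from LP through NP and HF to HF + LP, and of these neighbours LP and NP overlapped, NP and HF did not, and HF and HF + LP overlapped.

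By mouse, Csrp3 had normalized counts of 13688, 10765, 10591, 12091 and 11101 in NP, 12716, 13496, 12066, 13462 and 12467 in HF, 11363, 12081, 6778, 10621 and 8007 in LP, and 12175, 13647, 11222, 12606 and 13674 in HF + LP. LP 13 and LP 20 were the lowest of all 20 mice for this muscle LIM protein gene (ENSMUSG00000030470, chromosome 7, 48830398 to 48848033, minus strand), the HF + LP mice overlapped the highest LP mice, and the log2 fold change was 0.37 ± 0.13 (SE, adjusted p = 0.174). Without LP 13 and LP 20, the log2 fold change of Csrp3 was 0.14 in place of 0.37 (adjusted p = 0.824), and Fhl2 had 0.24 between HF + LP and LP in place of 0.36. Tpm1 had 0.15 in place of 0.37 and Tcap 0.59 in place of 0.64. For Myom2 the value was larger without them, -0.95, with an adjusted p of 0.0658, and for Actn2 it was -0.44 in place of -0.32. Over the 33 members the 95% interval included 0 for 27, and it lay within a 2-fold difference for 28, all but Ttn, Myom2, Tcap, Nebl and Lmod2.

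**Figure D4:**
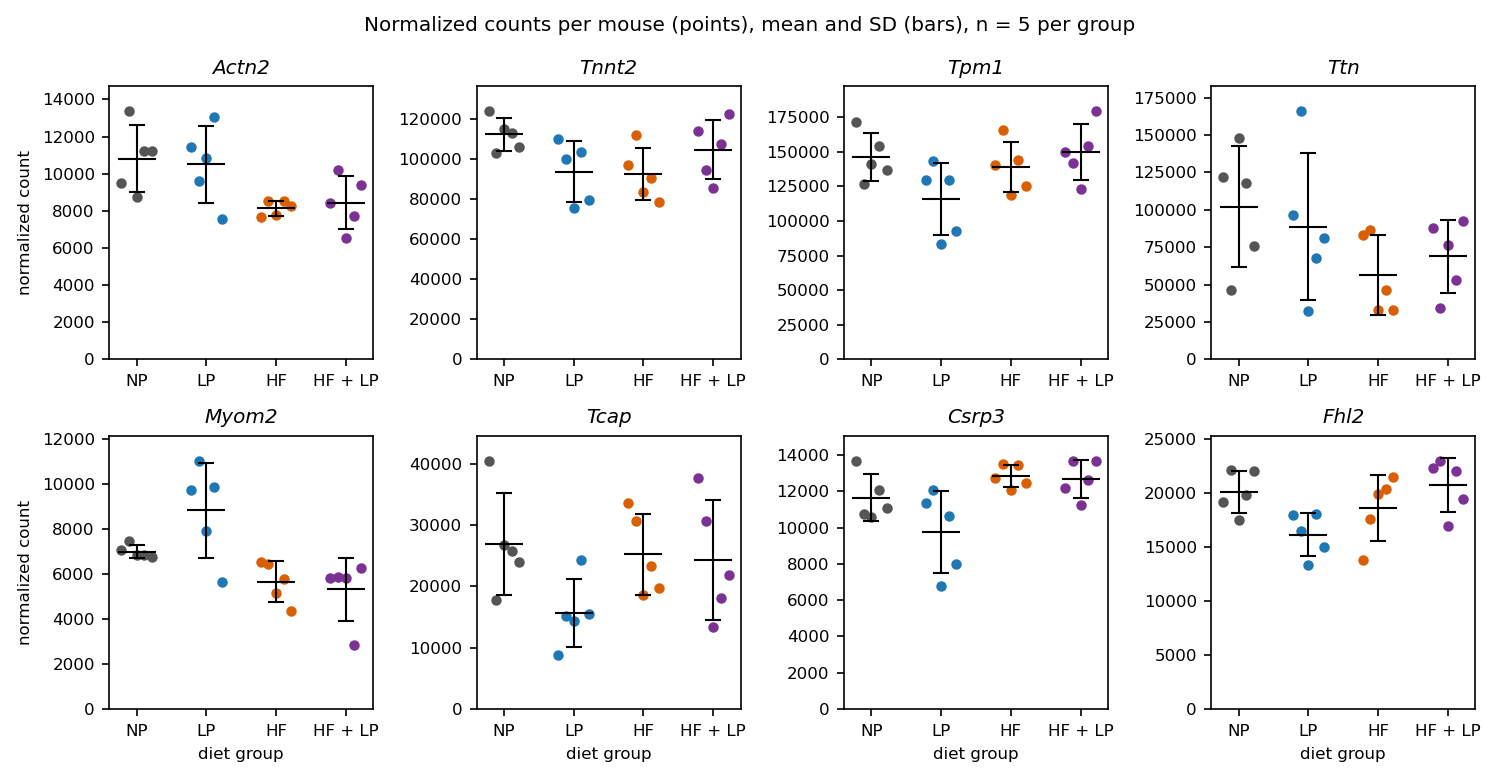
Normalized counts are shown for 8 members, 1 point per mouse, with the mean and SD of each diet group of 5 as bars. For Myom2, 4 of the 5 LP mice lie above all mice of the other diets, while for Fhl2, Tpm1 and Csrp3 the lowest of all points is LP 13 (13278, 83264 and 6778).

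The fat by protein interaction compared the effect of fat at low protein with its effect at normal protein. None of the members passed the threshold or an adjusted p under 0.05, and of all genes 0% did. Fhl2, Tnnt2 and Tpm1 had an unadjusted p under 0.05 and were higher, 9.09% of the members, where 7.17% of all genes were under it, 2.86% higher and 4.31% lower. DESeq2 called 0 of the 33. For Fhl2 the difference of the log2 fold changes was 0.47 ± 0.18 (SE, adjusted p = 0.672). For Tnnt2 it was 0.44 ± 0.18 (adjusted p = 0.683) and for Tpm1 0.45 ± 0.21 (adjusted p = 0.689). Without LP 13 and LP 20 the values were 0.35 for Fhl2, 0.27 for Tnnt2 and 0.22 for Tpm1, and 1 member, Myom2 at -0.64, had an unadjusted p under 0.05 (adjusted p = 1). The median over the members was 0.25, with 30 of 33 above 0, against -0.01 over all genes, and it was 0.12 without LP 13, 0.32 without LP 5 and 0.05 without LP 13 and LP 20. With the atrial sum in the model it was 0.17, and with the endothelial sum 0.21. Since the LP and HF + LP mice enter both this comparison and the ones before it, these values are not independent of them.

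A test for any difference among the 4 diets passed none of the members, where 0.479% of all genes passed, and none at an adjusted p under 0.05, where 1.8% did. Under an unadjusted p of 0.05 there were 5 (Myom2, Actn2, Csrp3, Fhl2 and Synpo2l), 15.2% of the members against 15.9% of all genes. DESeq2 called 0, and 1 under 0.05 (Myom2, adjusted p = 0.0159, where edgeR gave 0.0826). In edgeR the adjusted p of Myom2 was 0.0351 without LP 20, 0.0269 without LP 13 and LP 20 and 0.0367 with the endothelial sum in the model, all under 0.05, and 0.0562 to 0.159 without each of the other mice. The lowest of the 4 group means was in LP for 20 members, in HF for 9 and in HF + LP for 4, while NP had the highest mean for 14 and the lowest for none. Without LP 13 and LP 20 the lowest mean was in LP for 8, in HF for 13, in HF + LP for 7 and in NP for 5. Over all genes tested the lowest mean was in LP for 25.8%, in HF for 27.9%, in HF + LP for 22.5% and in NP for 23.8% with all mice, and for 26.3%, 29.7%, 19.9% and 24% without both. For 31 of the members the mice of every pair of diets compared here overlapped, the exceptions being Actn2 and Myom2 in HF vs NP.

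Other genes of the sarcomere and Z-disc were taken as a list of 53, of which 47 could be tested. None passed the threshold in any comparison. At an adjusted p under 0.05, 1 of the 47 was lower in HF than in NP, where 1.12% of all genes passed in either direction, and 2 differed among diets, where 1.8% did. Without LP 13 and LP 20 these were 3, where 2.32% of all genes passed, and 3, where 1.76% did. Myh6, the alpha myosin heavy chain that is the main motor of the adult mouse ventricle, averaged 59447 ± 4257 normalized counts in HF and 96776 ± 10009 in NP (SD, n = 5), and no HF mouse reached the lowest NP mouse. The log2 fold change was -0.70 ± 0.13 (SE, adjusted p = 0.0124), and among all diets its adjusted p was 0.0133. Flna (filamin A) differed among diets with an adjusted p of 0.0391, at 667 ± 22.4 in HF, 649 ± 68.4 in HF + LP, 858 ± 94.5 in NP and 892 ± 165 in LP (SD, n = 5).

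Counted at an unadjusted p under 0.05, the list held 3 higher and 9 lower genes in HF vs NP, 0 and 4 in LP vs NP, 1 and 5 in HF + LP vs HF, 2 and 10 in HF + LP vs LP, and 5 and 3 in the interaction, with 13 in the test of any diet. Of all genes, 5.17% were higher and 7.91% lower in HF vs NP, 5.02% and 2.21% in LP vs NP, 2.41% and 2.43% in HF + LP vs HF, 6.26% and 9.66% in HF + LP vs LP, and 2.86% and 4.31% in the interaction, with 15.9% for any diet. Without LP 13 and LP 20 the list held 1 higher and 0 lower in LP vs NP, 2 and 8 in HF + LP vs LP, and 0 and 4 in the interaction, with 17 for any diet, where 2.68%, 7.5%, 3.37% and 13.9% of all genes were under it in either direction. In LP vs NP the smallest p values were those of Klhl41 (a sarcomere ubiquitin-ligase adaptor), whose log2 fold change was -0.36 ± 0.13 (SE, adjusted p = 0.582), and Smyd1 (a muscle methyltransferase), whose log2 fold change was -0.35 ± 0.13 (SE, adjusted p = 0.622). In HF + LP vs HF they were Mybpc2 (fast myosin-binding protein C), whose log2 fold change was -0.91 ± 0.27 (SE, adjusted p = 0.459), and Ankrd1 (a stretch-responsive ankyrin protein), whose log2 fold change was -0.52 ± 0.19 (SE, adjusted p = 0.684). In HF + LP vs LP they were Flna, whose log2 fold change was -0.46 ± 0.12 (SE, adjusted p = 0.0847), and Klhl41, whose log2 fold change was 0.47 ± 0.13 (SE, adjusted p = 0.104). In the interaction they were Klhl41, with a difference of log2 fold changes of 0.50 ± 0.18 (SE, adjusted p = 0.652), and Csrp1 (a LIM protein of smooth muscle), with a difference of log2 fold changes of -0.55 ± 0.21 (SE, adjusted p = 0.671).

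Markers of other cells moved with some members from mouse to mouse. Titin was taken because it had the largest spread, and Myl2, a ventricular light chain, after its values had been seen. Each was set against 10 marker sums, 20 relations in all, over 20 mice on the log2 scale, with two-sided permutation p values, adjusted over the 20, given for titin alone. Permutations ran over all 20 mice and not within diets, so the p values also take in differences between diets. For Myl2 the coefficients are a description. Points share the library and its scaling. The normalized counts of Myl2 were 143668, 88439, 102189, 122225 and 106141 in NP, 83793, 115452, 87913, 121454 and 103506 in HF, 118327, 131661, 30491, 97974 and 80095 in LP, and 116217, 111765, 88284, 121227 and 137817 in HF + LP. Every mouse but LP 13 lay between 80095 and 143668.

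The level of Myl2 was lower where the atrial sum was higher, with r = -0.703 and rho = -0.749. Without the 2 mice farthest from the median of the atrial sum r was -0.729, after centring on the diet group it was -0.689, and within the 10 mice whose library name holds the number 3 it was -0.802. With the sum of the cardiac-muscle markers r was 0.885 and rho 0.842. With the adipocyte sum r was -0.716 and rho -0.52. It was -0.411 without the 2 farthest mice, -0.692 centred on the group and -0.72 within the 10 mice of library number 3. With the fibroblast sum r was -0.564 and rho -0.58.

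For titin the atrial sum gave r = -0.205 (permutation p = 0.381, adjusted 0.544) and rho = -0.289 (permutation p = 0.214, adjusted 0.343). The relation of titin to the endothelial sum (Pecam1, Cdh5, Kdr, Tek, Fabp4, Egfl7, Emcn and Vwf) had r = -0.741 (permutation p = 3e-04, adjusted 0.00148) and rho = -0.707 (permutation p = 6e-04, adjusted 0.003). It was -0.711 without the 2 farthest mice, -0.768 centred on the group and -0.654 within the 10 mice of library number 3. With the macrophage sum r was -0.737 (permutation p = 0.00028, adjusted 0.00148) and rho -0.756 (permutation p = 0.00025, adjusted 0.00193), -0.616 without the 2 farthest mice, -0.731 centred and -0.807 within library number 3. With the fibroblast sum rho was -0.547 (permutation p = 0.0138, adjusted 0.046) and r -0.498 (permutation p = 0.0245, adjusted 0.0628). The other 7 relations of titin, the atrial one included, did not reach an adjusted p under 0.05 in r or in rho.

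With the endothelial sum in the model, the log2 fold change of Ttn between HF and NP was -0.53 in place of -0.86 (adjusted p = 0.38), and that of Myom2 between HF + LP and LP was -0.70 (adjusted p = 0.0472). With the atrial sum in the model it was -0.78 for Myom2 (adjusted p = 0.151). The endothelial sum ran from 17701 to 23915 in NP, from 17128 to 30266 in HF, from 17892 to 31927 in LP and from 18070 to 30885 in HF + LP. Whether these cells or the quality of the RNA set the spread of titin was not tested.

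**Figure D5:**
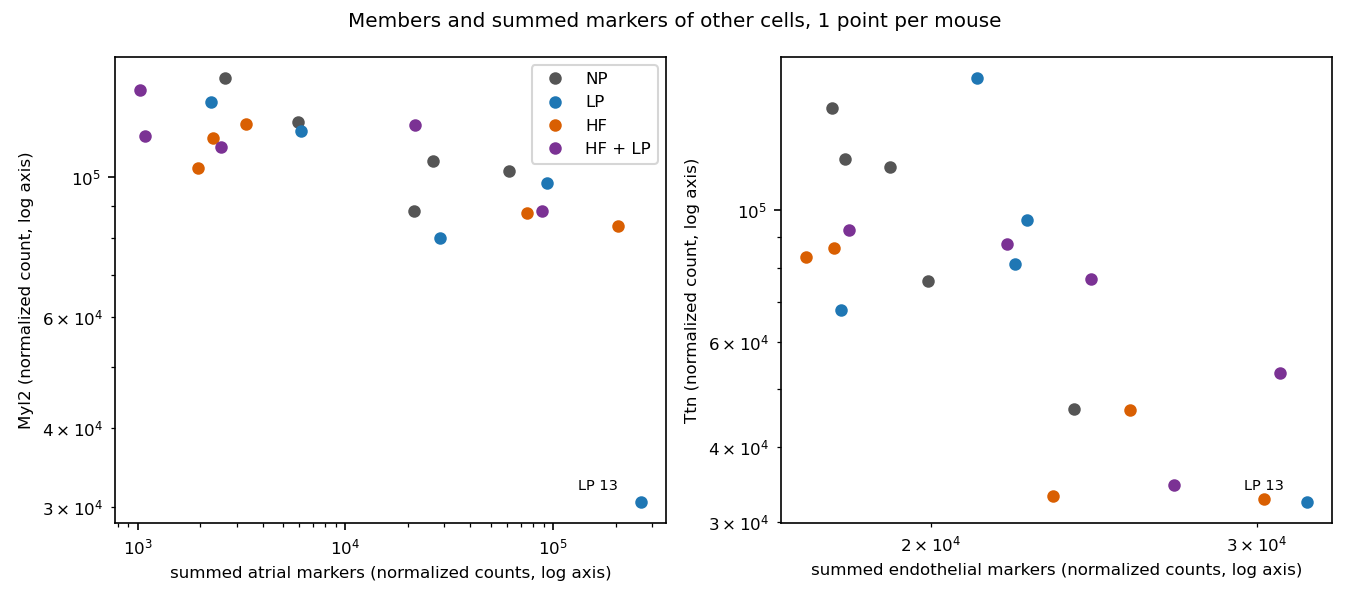
Each point is 1 mouse, coloured by diet, on log axes. The left panel sets the normalized count of Myl2 against 6 summed atrial markers and the right panel that of Ttn against 8 summed endothelial markers. Both fall from left to right (r = -0.703 and r = -0.741 over 20 mice), and LP 13 lies at the lower right of both.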

How the data were processed

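Left ventricle RNA of 20 mice, 5 per diet, was sequenced from the 3′ end (75 base reads). The authors deposited raw counts per Ensembl gene, aligned on the BlueBee platform per the study's methods; the submitters' processing notes name GRCm38 and DESeq2 1.22.2, and the counting program, annotation and strand setting are not given in the sources used here. Counts were taken as deposited for the 15956 listed genes (fewest counts of any gene in all libraries together, 60), and 15917 of them had a symbol in the gene table.

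Groups were taken from the labels, and 1 LP library whose title differs in style was kept as labelled. Counts of all genes were fitted with edgeR 4.0.16 (R 4.3.3; TMM normalization, filterByExpr, quasi-likelihood test, 16 residual degrees of freedom), with 1 model over the 4 groups and Benjamini-Hochberg adjustment over 13991 genes. Calls needed an adjusted p under 0.01 together with a mean of over 50 normalized counts. Normalized counts are counts scaled to TMM library sizes, and marker sums were put on log2(count + 1). Correlations over mice used 1e+05 permutations. Alternatives (DESeq2 1.42.0, other size factors, filters, thresholds and covariates, each mouse left out) are given below. The procedure was tested on simulated data.

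The members and lists were chosen with earlier results of these data known. Values for every mouse are given for the most abundant member of each role and for the 3 members with the smallest p in each comparison of diets and in the interaction. One result of the wider sarcomere list is not reported here. Motifs were searched in RefSeq windows (GRCm38.p6) with Python 3.11.15. Animal numbers recur between diets, but mice with the same number did not consistently deviate together and were not treated as pairs.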

Additional observations from a re-analysis of the deposited data

Results flagged for a closer look

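Within each diet, the highest or lowest mouse was called apart where its gap to the nearest mouse was over 0.71 of the group's range (Dixon's 95% critical value for 5 samples). Of 84 groups of 5 values tested, 6 passed, where chance gives about 1 in 20. Myom2 was lowest in HF + LP 4, at 2861 normalized counts, with the next mouse at 5817. Lmod2 was lowest in LP 13, at 2139 against 8012 in the next mouse. The atrial marker sum of HF + LP 3 was 88050, with the next of that diet at 21570. The adipocyte marker sum was high in LP 13 (9204 against 2113), in HF 3 (1126 against 33.05) and in HF + LP 3 (314.8 against 20.83).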

How the results depend on the processing

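None of the 33 members was called in any of the 156 alternative counts, and 342 alternative fold changes of named members kept their direction and their side of the threshold. The medians over the members in the 4 comparisons between pairs of diets were smaller than the spread between mice (0.233, log2), so their stability cannot be read from that spread. The one that moved by more than it was HF + LP vs LP with the animal number as a replicate block, -0.0551 in place of 0.18, and without LP 13 and LP 20 that median was -0.02. Under the block, LP 13, 15 and 20 and NP 6 and 8 had no weight in the diet comparisons, since their numbers occur in no other diet. Under that replicate block the median for LP vs NP was 0.01, that for the interaction was 0.0234 in place of 0.25 (19 of 33 members above 0), and the genes called among all genes were 2 in place of 37 in HF vs NP, 0 in place of 14 in HF + LP vs LP and 2 in place of 67 for any diet. Same-numbered mice did not consistently deviate together. Correlations were 0.127, -0.351 and -0.486 between HF and NP, from -0.548 to 0.487 between HF + LP and HF, and -0.014 and 0.377 between HF + LP and LP. The pair of LP and NP gave 0.203. Same-numbered mice of HF and HF + LP also had the same library number. So few pairs cannot show whether such mice shared anything more. With counts outside mitochondrial DNA as the denominator, the members held 12.30% in NP, 11.05% in HF, 10.83% in LP and 11.36% in HF + LP. Leaving out each mouse in turn gave medians from -0.16 to -0.06 in HF vs NP, from -0.33 to -0.09 in LP vs NP, from 0.03 to 0.07 in HF + LP vs HF from 0.09 to 0.30 in HF + LP vs LP and from 0.12 to 0.32 in the interaction.

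Counts of called genes over all genes varied more. HF vs NP gave 37 genes in edgeR, 159 in DESeq2, 61 with only the groups compared and 20 to 32 without each mouse in turn. HF + LP vs LP gave 14, with 84 in DESeq2, 0 with only the groups compared, 5 with the library number as a covariate and 1 to 16 without each mouse. Any diet gave 67, with 327 in DESeq2, 38 with the library number and 33 to 101 without each mouse. LP vs NP, HF + LP vs HF and the interaction gave 0 in edgeR and 4, 13 and 1 in DESeq2. The adjusted p of Myom2 in HF + LP vs LP ran from 0.0168 in DESeq2 to 0.61 under the block, and was 0.182 with the library number. Apart from the mice that have no weight under the block, the cause of these changes was not tested. Leaving out LP 13 with LP 20, and the atrial and endothelial sums as covariates, were chosen after seeing the data. The library number is taken from the library names and is not known to be a batch. With 5 mice per diet, the 95% interval of titin reached past a 2-fold difference in all 4 comparisons between pairs of diets.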
